A study of Mus musculus with 15 samples.

Results

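The transcripts described here encode 9 mouse proteins that bind stored messenger RNA in the oocyte or belong to the particles that hold it. They are Pum2, Ybx2, Dazl, Cpeb1, Cpeb2, Cpeb4, Eif4enif1, Ddx6 and Lsm14b. The group is named for keeping mRNA untranslated, though some of these proteins can also promote translation or the lengthening of poly(A) tails. Its members on the array are the probe sets that the platform annotation assigns to 1 of these symbols alone. There were 20 such probe sets among 45037 outside the array controls, and each of the 9 genes had at least 1. The test covered 17 of the 20, with all 9 genes among them. The probe sets 1441448_at (Pum2), 1443017_at (Cpeb2) and 1447789_x_at (Ddx6) had too low a mean signal to be tested.

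Gene expression was measured on 15 Affymetrix arrays, each from a pool of 150 oocytes of female B6D2F1 mice, a hybrid laboratory strain. All females received PMSG, a gonadotropin that stimulates follicle growth. Adult females, aged 7 to 8 weeks, gave oocytes at the germinal vesicle stage (GV, n = 2), before meiosis resumes, collected 48 h after PMSG. They also gave eggs at metaphase II (MII, the ovulated stage) matured in vivo after hCG, the hormone that triggers ovulation (n = 3), or in vitro for 16 h in Gmat medium (n = 2). Peripubertal females at day 26 (d26) gave MII eggs matured in vivo (n = 2) and in vitro (n = 3), and prepubertal females at day 20 (d20) gave MII eggs matured in vitro (n = 3). GV arrays came from adults alone, so a difference between d20 or d26 eggs and GV joins stage with age. Hyaluronidase was used on oocytes of all groups to strip the surrounding cumulus cells. The labels do not say whether the pools came from separate animals, so p-values measure the spread between these pools, which may be technical.

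A growing oocyte makes large amounts of mRNA and then stops transcription, so that meiosis and early development run on stored messages. Stored mRNA carries a short poly(A) tail and is packed with proteins that keep the translation machinery away from its cap, and maturation releases chosen messages as their tails lengthen. Some repressors recognise sequence elements in their targets (PUM2, DAZL and the CPEB proteins), YBX2 coats mRNA broadly, and EIF4ENIF1, DDX6 and LSM14B belong to the particle that holds repressed mRNA.

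The promoters of Cpeb1 and Cpeb4 are printed because the mRNAs of these paralogs moved in opposite directions between GV and MII. RefSeq windows (build GRCm38.p6, 300 bases around the transcript start) were found for 7 of the 9 genes, 13 windows in all. The Cpeb1 window lies at chr7:81454709-81455008 on the minus strand, and the Cpeb4 window at chr11:31870690-31870989 on the plus strand. Capitals mark matches to CANNTG, the E-box letters, which read the same on both strands.
Cpeb1: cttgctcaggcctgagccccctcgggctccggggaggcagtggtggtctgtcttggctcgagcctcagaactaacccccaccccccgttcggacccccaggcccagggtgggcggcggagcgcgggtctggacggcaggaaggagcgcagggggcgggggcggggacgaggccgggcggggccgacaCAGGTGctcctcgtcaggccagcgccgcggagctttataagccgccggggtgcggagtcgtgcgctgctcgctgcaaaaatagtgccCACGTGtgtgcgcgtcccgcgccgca
Cpeb4: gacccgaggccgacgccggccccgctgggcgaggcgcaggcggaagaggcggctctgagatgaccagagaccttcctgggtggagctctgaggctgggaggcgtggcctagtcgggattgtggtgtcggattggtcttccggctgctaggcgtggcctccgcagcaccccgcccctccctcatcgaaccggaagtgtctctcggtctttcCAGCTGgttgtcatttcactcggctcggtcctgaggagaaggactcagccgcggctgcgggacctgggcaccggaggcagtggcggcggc
The Cpeb1 window holds 2 such matches and 33 CG dinucleotides, and the Cpeb4 window holds 1 match and 27 CG dinucleotides. Of all 32851 windows in the table, 72.3% hold CANNTG, and the median window has 7 CG dinucleotides. TATAAA, searched on both strands, occurs in the Cpeb1 window and not in that of Cpeb4, and 13.6% of all windows hold it. GGGCGG, also searched on both strands, occurs in both windows, as in 35.7% of all windows. These matches describe letters in the windows and were not tested against the expression values.

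Levels are given as log2 of the deposited intensity after quantile normalization, which gives every array the same distribution of values. Markers of the oocyte itself were measured in every array. Of 14 oocyte markers 13 were measured, and 12 of them were above the test's signal limit of 3.07 in every array. Gdf9, an oocyte growth factor, stood at 12.07 to 13.60 across the 15 arrays, while others read lower in MII, such as Nobox at a group mean of 10.21 in GV and 6.22 to 6.72 in MII groups. Figla, at 7.16 in GV, was under the limit in 2 arrays. The summed level of the 13 was 56429 to 64043 in GV and 19887 to 41069 in MII arrays. Before normalization the arrays were uneven. An intensity of 200 was exceeded by 9842 and 9719 probe sets in GV and by 4903 to 6760 in 9 MII arrays. It was exceeded by only 2637 to 3061 in 4 dim arrays. Those were replicate 1 of the adult in vivo group, replicate 2 of the adult in vitro group, and replicates 2 and 3 of d26 in vitro. The part of brightness in the results below was not tested beyond the alternatives given beside them. A probe set was called higher or lower at an adjusted p below 0.05 (limma, Benjamini-Hochberg over 22519 probe sets). Because RNA was selected through its poly(A) tail, a longer tail and a larger number of molecules cannot be told apart. Nor can fewer cells with a transcript be told apart from less of it per cell, since oocytes were pooled.

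**Figure D1:**
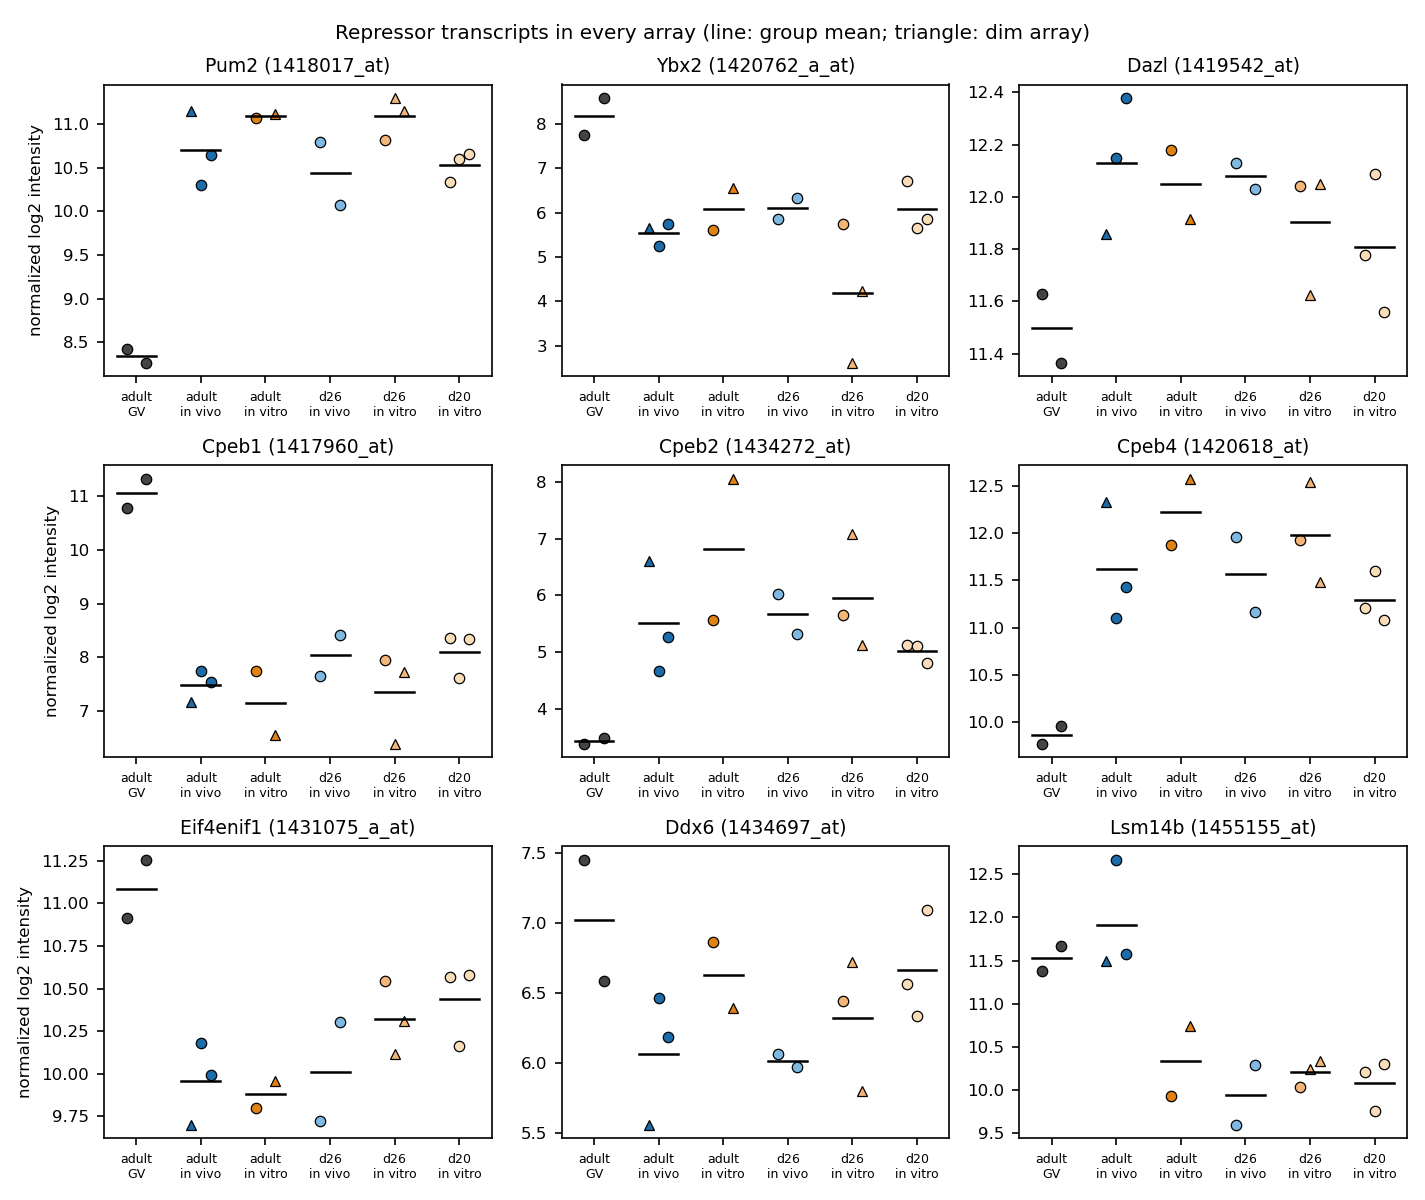
Normalized log2 intensity (vertical axis) of 1 probe set per gene in each of the 15 arrays, by group (horizontal axis). Points are arrays, triangles are the 4 dim arrays and lines are group means. Every MII array lies above both GV arrays for Pum2, Cpeb2 and Cpeb4 and below both for Cpeb1, Ybx2 and Eif4enif1. Among all tested probe sets 18.0% separate upward in this way and 15.8% downward. As deposited the stages overlap for Pum2, Cpeb2 and Cpeb4. Lsm14b separates the 5 adult GV and adult in vivo arrays from the other 10, a split not counted over all tested probe sets. As deposited these Lsm14b arrays overlap.

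Between adult GV and MII, the stored-mRNA repressors changed in both directions. Cpeb1, Ybx2 and Eif4enif1 mRNA fell and Pum2 and Cpeb4 mRNA rose after maturation in vivo. After maturation in vitro, Cpeb1, Eif4enif1 and Lsm14b fell, and Pum2, Cpeb2 and Cpeb4 rose. Of 17 tested probe sets, 4 were called higher and 3 lower in vivo (41.2%), where 26.8% of all tested probe sets were called, 15.7% higher and 11.1% lower. In vitro 5 were called higher and 3 lower (47.1%), where 27.7% of all were called, 16.0% higher and 11.7% lower. With 1 probe set per gene, 2 genes were higher and 3 lower in vivo, and 3 were higher and 3 lower in vitro. The median log2 difference over the 17 was -0.16 in vivo and -0.09 in vitro, beside 0.24 and 0.13 over all tested probe sets. With 1 probe set per gene it was 0.39 in vivo and -0.39 in vitro, so the sign of the in vivo median depended on this choice. Both comparisons share the same 2 GV arrays. With intensities as deposited, the median over all tested probe sets became -0.98 in vivo and -1.94 in vitro. The members called were then 0 higher and 2 lower in vivo and 0 higher and 5 lower in vitro. Of all tested probe sets, 23 were then called higher and 3481 lower in vivo, and 11 and 6224 in vitro. Beside these changes, the summed level of 11 cumulus cell markers was 173 to 177 in GV and 354 to 892 in MII arrays, with 4 of the 11 averaging below the signal limit in GV and 2 to 5 in the MII groups. Among them Kitl averaged 5.79 in GV and 7.77 to 8.58 in MII groups, and Fshr 4.28 and 2.11 to 3.67. The part of this signal in the results was not tested.

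Cpeb1 had the largest fall among the members. CPEB1 binds the cytoplasmic polyadenylation element and, depending on its phosphorylation, silences an mRNA or directs the lengthening of its tail. Its probe set 1417960_at read 10.78 and 11.33 in the GV arrays. It read 7.16, 7.74 and 7.55 in adult in vivo eggs, and 7.74 and 6.56 in adult in vitro eggs. The groups were far apart, and the lowest GV array stood above the highest of all 13 MII arrays, 8.42. The log2 difference was -3.57 in vivo (SE 0.49, adjusted p = 0.000126, limma) and -3.91 in vitro (SE 0.54, adjusted p = 0.000143, limma), that is 11.9-fold and 15.01-fold lower. The fall was called in all 24 alternatives run for each comparison, at -4.41 to -3.24 in vivo and -5.69 to -3.15 in vitro. In the younger mice the eggs were at 7.66 and 8.42 (d26 in vivo), 7.94, 6.38 and 7.73 (d26 in vitro) and 8.35, 7.62 and 8.33 (d20 in vitro). These ran from 6.38 to 8.42, beside 6.56 to 7.74 in adult eggs. On the deposited scale Cpeb1 read 3345 and 3926 in GV, and 23.7 to 552 across the MII arrays.

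Cpeb4 moved the other way. CPEB4 recognises much the same element as CPEB1, and in frog oocytes it takes over tail lengthening late in meiosis. Probe set 1420618_at read 9.76 and 9.96 in GV. It read 12.33, 11.10 and 11.43 in adult in vivo eggs, and 11.87 and 12.58 in adult in vitro eggs. No MII array of any age fell below 11.08, so the stages did not overlap after normalization. As deposited they overlapped, at 1982 and 1944 in GV and 1112 in the dim d26 in vitro replicate 3. The log2 difference was 1.76 in vivo (SE 0.39, adjusted p = 0.0033, limma) and 2.36 in vitro (SE 0.42, adjusted p = 0.00079, limma), or 3.38-fold and 5.15-fold. A further probe set, 1420617_at, read 7.29 and 7.10 in GV, 11.18, 9.76 and 10.16 in adult in vivo eggs and 10.49 and 11.20 in adult in vitro eggs. It was higher by 3.17 in vivo (SE 0.42, adjusted p = 9.0e-05, limma) and 3.65 in vitro (SE 0.46, adjusted p = 7.6e-05, limma). Both rises were called under every alternative except the intensities as deposited. There 1420617_at differed by 1.50 in vivo (adjusted p = 0.103) and 1.18 in vitro (adjusted p = 0.18), and 1420618_at by 0.87 (adjusted p = 0.364) and 0.86 (adjusted p = 0.288), where the medians over all tested probe sets were -0.98 and -1.94.

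Cpeb2, a paralog of Cpeb4 with a closely related RNA-binding domain, read close to the signal limit in GV. Probe set 1434272_at read 3.38 and 3.50 in GV, 6.60, 4.66 and 5.27 in adult in vivo eggs, and 5.57 and 8.05 in adult in vitro eggs. All 13 MII arrays, from 4.66 up, lay above both GV arrays after normalization. As deposited the dim d26 in vitro replicate 3 read 12.2, below 21.3 and 18.7 in GV. The rise of 3.37 in vitro was called (SE 0.83, adjusted p = 0.0068, limma), and the difference of 2.07 in vivo did not pass (SE 0.76, adjusted p = 0.057, limma). The 2 highest adult readings came from dim arrays. Without adult in vitro replicate 2 the in vitro difference was 2.17 and no longer passed (adjusted p = 0.109), while without all 4 dim arrays the differences were 1.61 in vivo (adjusted p = 0.013) and 2.29 in vitro (adjusted p = 0.0066), both past the threshold. As deposited the in vitro value was 1.41 (adjusted p = 0.206).

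Pum2 rose on 2 of its probe sets. PUM2 is a Pumilio protein, which binds a short element in the untranslated end of its targets and represses them, in part by recruiting deadenylases. Probe set 1418017_at read 8.42 and 8.26 in GV, 11.15, 10.31 and 10.65 in adult in vivo eggs, and 11.07 and 11.11 in adult in vitro eggs. The MII arrays of all ages, from 10.07 to 11.30, were clear of GV after normalization. As deposited they overlapped, at 974 and 856 in GV and 884 in the dim d26 in vitro replicate 3. The log2 difference was 2.36 in vivo (SE 0.29, adjusted p = 4.9e-05, limma) and 2.75 in vitro (SE 0.31, adjusted p = 4.1e-05, limma), or 5.13-fold and 6.71-fold. Probe set 1418015_at, which read 5.59 and 5.48 in GV, gave 2.06 (adjusted p = 0.0019) and 2.60 (adjusted p = 0.00071). As deposited neither rise passed: 1418017_at differed by 0.99 in vivo (adjusted p = 0.334) and 0.59 in vitro (adjusted p = 0.496), and 1418015_at by 0.16 and, with the sign turned, -0.24. With each array scaled to a common median, 1418017_at still rose in vivo (1.76, adjusted p = 0.0021) and 1418015_at no longer passed (0.94, adjusted p = 0.235).

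Dazl did not pass the test in either setting. DAZL is a germ cell protein that can repress or promote translation of its targets, alone or together with CPEB1. Probe set 1419542_at read 11.63 and 11.36 in GV, 11.86, 12.15 and 12.38 in adult in vivo eggs, and 12.18 and 11.91 in adult in vitro eggs. The adult eggs were all above GV by a small margin, but d20 eggs, at 11.78, 12.09 and 11.56, and d26 in vitro eggs, at 12.04, 11.63 and 12.05, overlapped it. Neither difference passed, at 0.63 in vivo (SE 0.23, adjusted p = 0.052, limma) and 0.55 in vitro (SE 0.25, adjusted p = 0.12, limma). The in vivo value passed in 7 of 24 alternatives, among them the fit without the 4 dim arrays (0.71, adjusted p = 0.011).

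Ybx2 fell in vivo. YBX2, also called MSY2, is a Y-box protein that coats and stabilises much of the oocyte's mRNA. Probe set 1420762_a_at read 7.76 and 8.59 in GV, 5.65, 5.25 and 5.73 in adult in vivo eggs, and 5.61 and 6.55 in adult in vitro eggs. All 13 MII arrays, at most 6.72, were below both GV arrays. The difference of -2.63 in vivo passed (SE 0.71, adjusted p = 0.012, limma), a 6.20-fold fall, but not without GV replicate 2 (-2.23, adjusted p = 0.132). The in vitro difference of -2.10 did not pass (SE 0.78, adjusted p = 0.059, limma). It passed in 9 of 24 alternatives, with -2.67 and an adjusted p of 0.0037 in the fit without the 4 dim arrays. The dim d26 in vitro arrays held the lowest readings of Ybx2, 2.60 and 4.23, while their group's brighter array read 5.73.

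Eif4enif1, a gene of the cap-bound repressor particle, fell in both settings. Eif4enif1 encodes 4E-T, which binds the cap-binding protein eIF4E and blocks assembly of the initiation complex. Its only probe set, 1431075_a_at, read 10.91 and 11.26 in GV, 9.70, 10.18 and 9.99 in adult in vivo eggs, and 9.80 and 9.96 in adult in vitro eggs. The eggs of all ages, at most 10.58, stayed below the adult GV arrays. It was lower by a log2 difference of -1.13 in vivo (SE 0.26, adjusted p = 0.0049, limma) and -1.21 in vitro (SE 0.29, adjusted p = 0.0056, limma), or 2.19-fold and 2.31-fold. Without GV replicate 2 neither value passed, at -0.97 (adjusted p = 0.084) and -1.05 (adjusted p = 0.071). The in vivo value also missed the threshold as deposited (-1.86, adjusted p = 0.148) and with a common median (-1.09, adjusted p = 0.072).

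None of the 3 tested Ddx6 probe sets passed the test. DDX6 is the RNA helicase that links deadenylation to repression in the particle. Probe set 1434697_at read 7.45 and 6.59 in GV, 5.56, 6.46 and 6.18 in adult in vivo eggs, and 6.86 and 6.40 in adult in vitro eggs. The in vitro arrays overlapped GV, and the in vivo arrays lay just below it. The differences were -0.95 in vivo (95% interval -1.92 to 0.01, adjusted p = 0.144, limma) and -0.39 in vitro (95% interval -1.45 to 0.67, adjusted p = 0.623, limma). With a common median instead they were -1.98 (adjusted p = 0.012) and -1.82 (adjusted p = 0.027), both past the threshold. The in vivo value also passed with array weights (-0.81, adjusted p = 0.0497, limma). The in vitro value passed as deposited (-3.23, adjusted p = 0.028, limma), where the median over all tested probe sets was -1.94. The other 2 probe sets differed by -0.42 and -0.28 in vivo and by 0.39 and 0.32 in vitro.

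**Figure D2:**
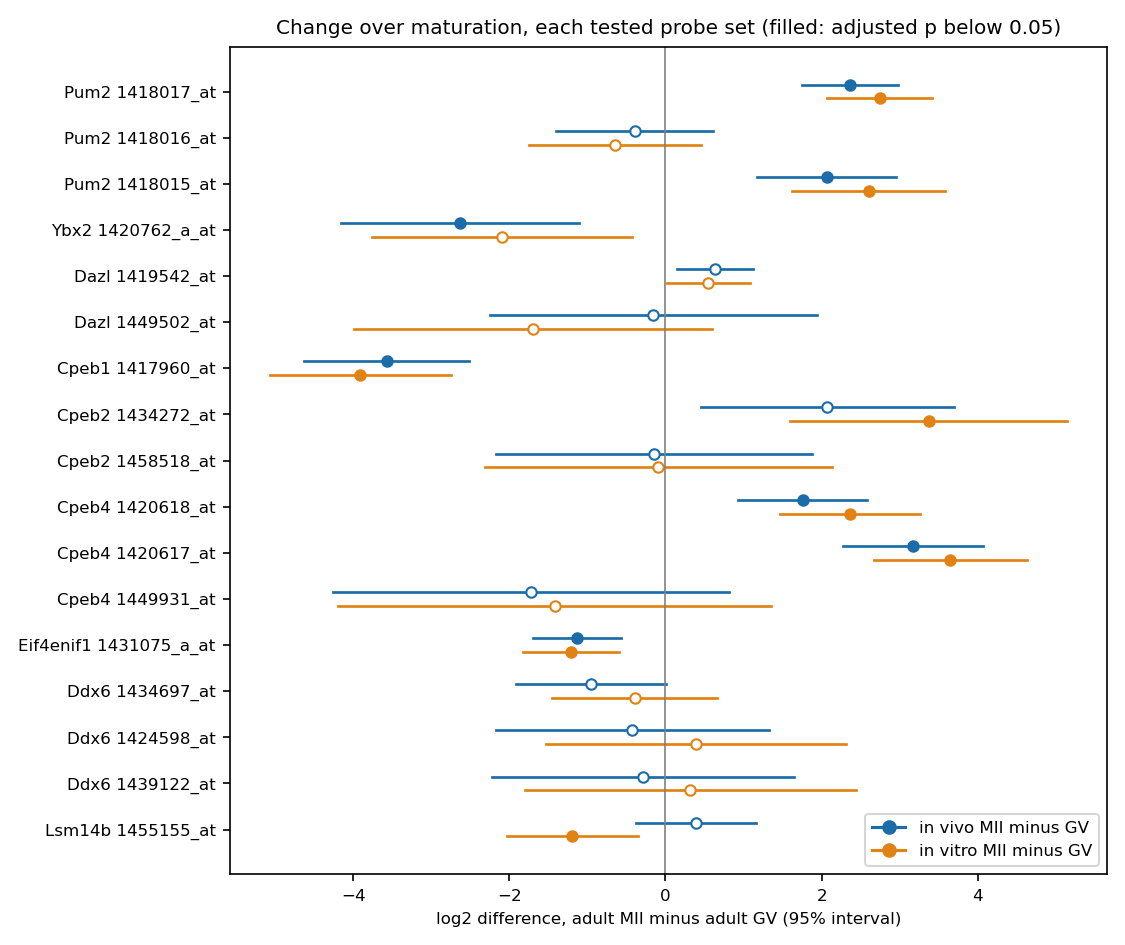
Log2 difference between adult MII and adult GV (horizontal axis) for each of the 17 tested probe sets, with 95% intervals from the limma fit, in vivo in blue and in vitro in orange. Filled points passed at an adjusted p below 0.05. Cpeb1 lies farthest to the left and Cpeb4 1420617_at farthest to the right in vivo, and Lsm14b has filled and open points on opposite sides of 0. With intensities as deposited no rise passed and Pum2 1418015_at turned negative in vitro.

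Lsm14b read high in GV and adult in vivo arrays and lower in all others. LSM14B is an LSm-domain protein of the repressor particle that is abundant in oocytes. Probe set 1455155_at read 11.39 and 11.67 in GV and 11.49, 12.67 and 11.58 in adult in vivo eggs. It read 9.93 and 10.74 in adult in vitro eggs, 9.60 and 10.29 in d26 in vivo eggs, 10.04, 10.24 and 10.33 in d26 in vitro eggs, and 10.21, 9.76 and 10.30 in d20 eggs. The 5 GV and adult in vivo arrays ran from 11.39 to 12.67 and the other 10 from 9.60 to 10.74, with no overlap. As deposited the split was not clean, since the dim adult in vivo replicate 1 read 1483. The d26 in vivo replicate 2 read 1968, and d20 replicates 1 and 3 read 1721 and 1935. This split was looked at for Lsm14b alone. The share of all tested probe sets that separate in this way was not counted, so how unusual it is cannot be told. Against GV the difference was 0.39 in vivo (SE 0.36, adjusted p = 0.503, limma) and -1.19 in vitro (SE 0.39, adjusted p = 0.035, limma). The fall in vitro no longer passed in a fit with no intensity trend (-1.19, adjusted p = 0.092, limma). Nor did it pass without GV replicate 1 (-1.36), GV replicate 2 (-1.07) or adult in vitro replicate 1 (-0.78). Each of these omissions left 1 array in a group. Adult in vivo exceeded adult in vitro eggs by 1.58 (SE 0.36, unadjusted p = 0.00057, 95% interval 0.81 to 2.35 in the limma fit), which did not pass adjustment (adjusted p = 0.312). The arrays of these groups did not overlap, as was so in the same direction for 9.56% of all tested probe sets. Over its 24 alternatives this difference ran from 1.17 to 2.40, with adjusted p from 0.066 to 0.884.

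At d26 the same contrast for Lsm14b was -0.26 (SE 0.36, adjusted p = 0.864, limma). The difference between the contrasts was -1.84 (SE 0.51, unadjusted p = 0.0027, limma) and did not pass adjustment either (adjusted p = 1.00). The adult in vivo arrays also carried the highest leukocyte marker signal. The summed level of 10 leukocyte markers was 213 to 623 in adult in vivo arrays, 58.8 to 63.3 in GV and at most 196 elsewhere, and 2 of the 10 averaged below the signal limit in adult in vivo eggs against 8 in GV. The summed level of 8 oviduct markers, 2841 to 5293 in adult in vivo arrays, overlapped that of the d26 in vivo arrays (3114 to 4061) and of the in vitro arrays (3385 to 3436 in adults, 2434 to 3267 at d26 and 2055 to 2964 at d20), and was 1401 to 1729 in GV. Cdh1 made up most of that sum, with group means of 10.50 in GV and 11.17 to 11.75 in MII groups. The oviduct glycoprotein gene Ovgp1 averaged 7.36 in adult in vivo and 3.69 to 4.64 in the other groups. Epcam, Pax8 and Krt18 also averaged highest in adult in vivo arrays, Krt18 by little (3.75 beside 3.67 in d26 in vivo). The remaining markers did not. Krt8 was highest in GV (5.63 beside 4.38 in adult in vivo), Foxj1 and Cdh1 in d26 in vivo, and Krt7 in d26 in vitro. The part of these signals in the Lsm14b readings was not tested.

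Different probe sets of 1 gene did not always move together. Pum2 1418016_at read 10.21 and 9.79 in GV, 8.82, 9.83 and 10.15 in adult in vivo eggs and 10.29 and 8.41 in adult in vitro eggs. These overlap, and the differences of -0.40 (95% interval -1.40 to 0.61) and -0.65 (95% interval -1.75 to 0.45) did not pass. Over the 15 arrays it had a Pearson r of -0.10 with 1418017_at, whereas 1418017_at and 1418015_at had an r of 0.93. The Cpeb4 pair that rose had an r of 0.96, and the third Cpeb4 probe set, 1449931_at, had an r of -0.49 with 1420618_at. It was dim, at 4.47 and 4.75 in GV and -0.07 to 4.78 in MII arrays, and its differences of -1.72 and -1.42 did not pass. Dazl 1449502_at read 10.20 and 10.15 in GV but spread from 7.21 to 11.41 in the eggs, with its 3 lowest readings in dim arrays, and its r with 1419542_at was 0.17. The positions of these probe sets on their transcripts were not used here.

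**Figure D3:**
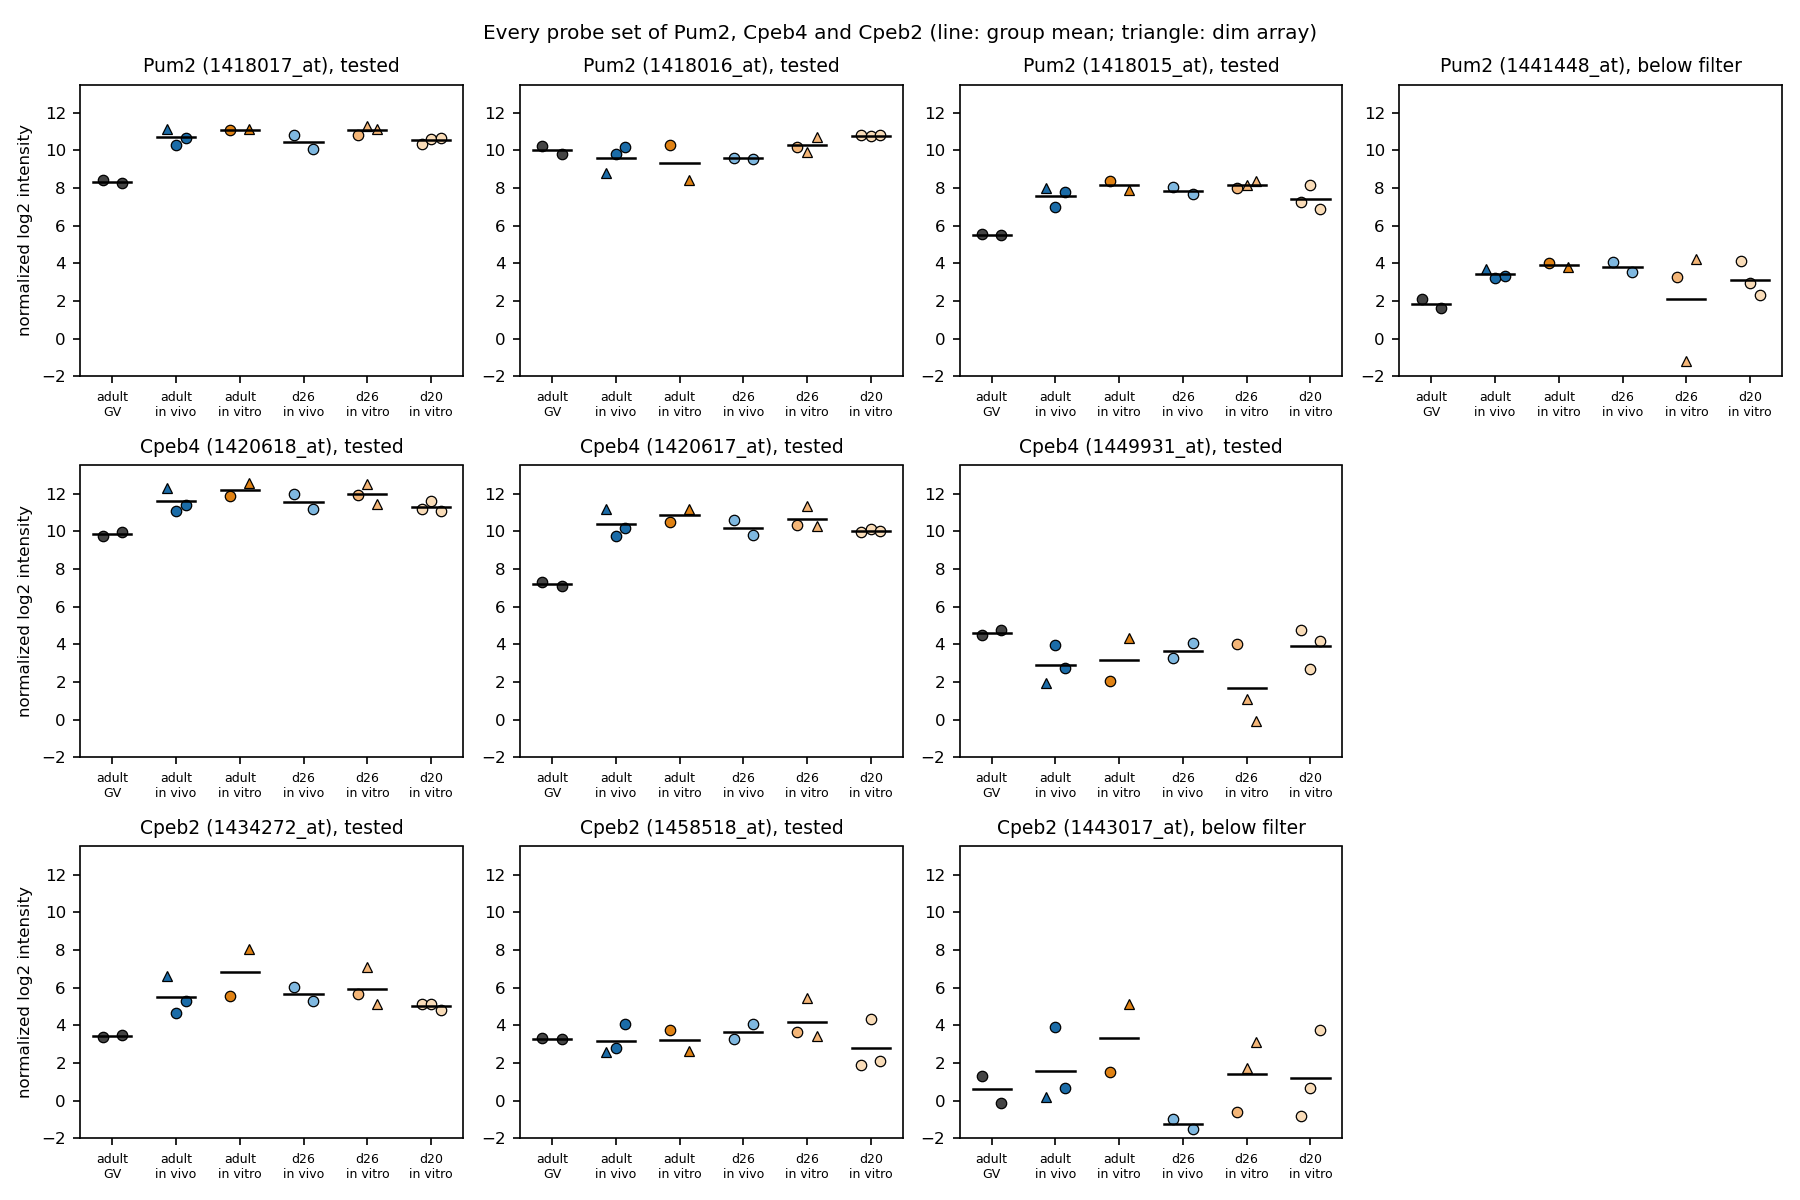
Normalized log2 intensity (vertical axis) of every probe set of Pum2, Cpeb4 and Cpeb2 in the 15 arrays by group (horizontal axis), on 1 common scale. Points are arrays, triangles are dim arrays and lines are group means. Pum2 1418016_at runs from 8.41 to 10.80 with GV inside that range, where 1418017_at and 1418015_at rise, and the dim probe sets Cpeb4 1449931_at, Cpeb2 1458518_at and the 2 below the signal limit overlap between stages.

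The untested and remaining probe sets add little to these levels. Pum2 1441448_at read 1.61 and 2.09 in GV and -1.17 to 4.24 in MII arrays, and Cpeb2 1443017_at ran from -1.51 to 5.15. Ddx6 1447789_x_at read 3.51 and 4.07 in GV and -0.28 to 4.29 in MII arrays. The tested Cpeb2 1458518_at read 3.31 and 3.27 in GV and 1.91 to 5.48 in the eggs, with differences of -0.14 and -0.09. In all, 13 of the 20 probe sets were above the signal limit in every array and 7 fell below it in at least 1. Over all ages, 5 of the 17 tested probe sets were higher in every MII array than in both GV arrays and 3 were lower in every one. Among all tested probe sets 18.0% separated the stages upward in this way and 15.8% downward. These are counts after normalization. As deposited, with the GV arrays brighter than the MII arrays, the stages overlapped for the 5 probe sets and not for the 3.

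How maturation in vivo and in vitro differ within an age, and how the age of the mother matters, were the other questions of the design. No member passed in any of these 7 comparisons, which is a count of 0 of 17 by limma in each. Between adult in vivo and in vitro eggs 0.00444% of all tested probe sets were called and 1 member, Lsm14b, had an unadjusted p below 0.05. At d26, 0.0400% of all were called and 2 members had an unadjusted p below 0.05. Over both ages these were 0.226% and 2 members, and for the difference between ages 0% and 2 members. Among in vitro eggs, d20 against d26 gave 0% and 3 members at an unadjusted p below 0.05, d20 against adult 0.0222% and 4 members, and d26 against adult 0.00444% and 1 member. Those percentages count adjusted p, so they are not on the scale of the members' unadjusted counts. In the same order, 1801, 1531, 2791, 840, 2581, 3971 and 1654 of all 22519 tested probe sets had an unadjusted p below 0.05. These stand beside 1, 2, 2, 2, 3, 4 and 1 of the 17 members.

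Ybx2, Pum2 and Lsm14b were among the members with such an unadjusted p. Ybx2 in d26 eggs was 5.85 and 6.34 in vivo and 5.73, 2.60 and 4.23 in vitro, a difference of 1.91 (95% interval 0.39 to 3.43, adjusted p = 0.611, limma), and both low values are of dim arrays. Pum2 1418017_at was lower in vivo than in vitro at d26, 10.80 and 10.07 against 10.81, 11.30 and 11.15. The difference was -0.65 (95% interval -1.27 to -0.04, adjusted p = 0.702, limma). It ran from -1.01 to 0.52 over 24 alternatives, and the in vitro readings of 11.30 and 11.15 are of dim arrays. In d20 eggs this probe set, at 10.33, 10.60 and 10.66, differed from adult in vitro eggs by -0.56 (95% interval -1.17 to 0.06, adjusted p = 0.324, limma). That interval holds 0, so this difference did not reach an unadjusted p below 0.05. None of the differences in this paragraph passed adjustment.

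Between d20 and adult in vitro eggs, the arrays did not overlap for 7 of the 17 tested probe sets, and none of these differences passed adjustment. Those higher at d20 were Pum2 1418016_at, Dazl 1449502_at and Eif4enif1, and those lower were Pum2 1418017_at, Cpeb2 1434272_at and both Cpeb4 probe sets 1420618_at and 1420617_at. Among all tested probe sets, the arrays of these groups did not overlap for 21.9% upward and 19.6% downward, so the members' shares are near the background. The largest member difference was that of Dazl 1449502_at, which read 10.90, 10.11 and 10.71 at d20 and 9.15 and 7.80 in adult in vitro eggs, a difference of 2.10 (95% interval 0.00 to 4.19, adjusted p = 0.282, limma). Cpeb4 1420618_at read 11.21, 11.60 and 11.08 at d20, a difference of -0.93 (95% interval -1.75 to -0.11, adjusted p = 0.246, limma). Cpeb2 1434272_at read 5.12, 5.11 and 4.81, a difference of -1.80 (95% interval -3.42 to -0.18, adjusted p = 0.251, limma). Pum2 1418016_at read 10.80, 10.76 and 10.80, the tightest group of that probe set, a difference of 1.44 (95% interval 0.44 to 2.44, adjusted p = 0.184, limma). Without adult in vitro replicate 1 this last value became 2.37 and passed (adjusted p = 0.015), with the dim replicate 2 as the lone adult in vitro array, assumed to vary like the other groups. In that fit 762 of the 22519 probe sets were called, beside 5 with all arrays, and 1 of the 17 members. The intervals of Dazl 1419542_at and Eif4enif1 were the narrowest of the 9 genes. For Dazl they spanned -0.72 to 0.25 between d20 and adult and -0.40 to 0.57 between adult in vivo and in vitro eggs, and for Eif4enif1 0.00 to 1.12 and -0.49 to 0.64.

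**Figure D4:**
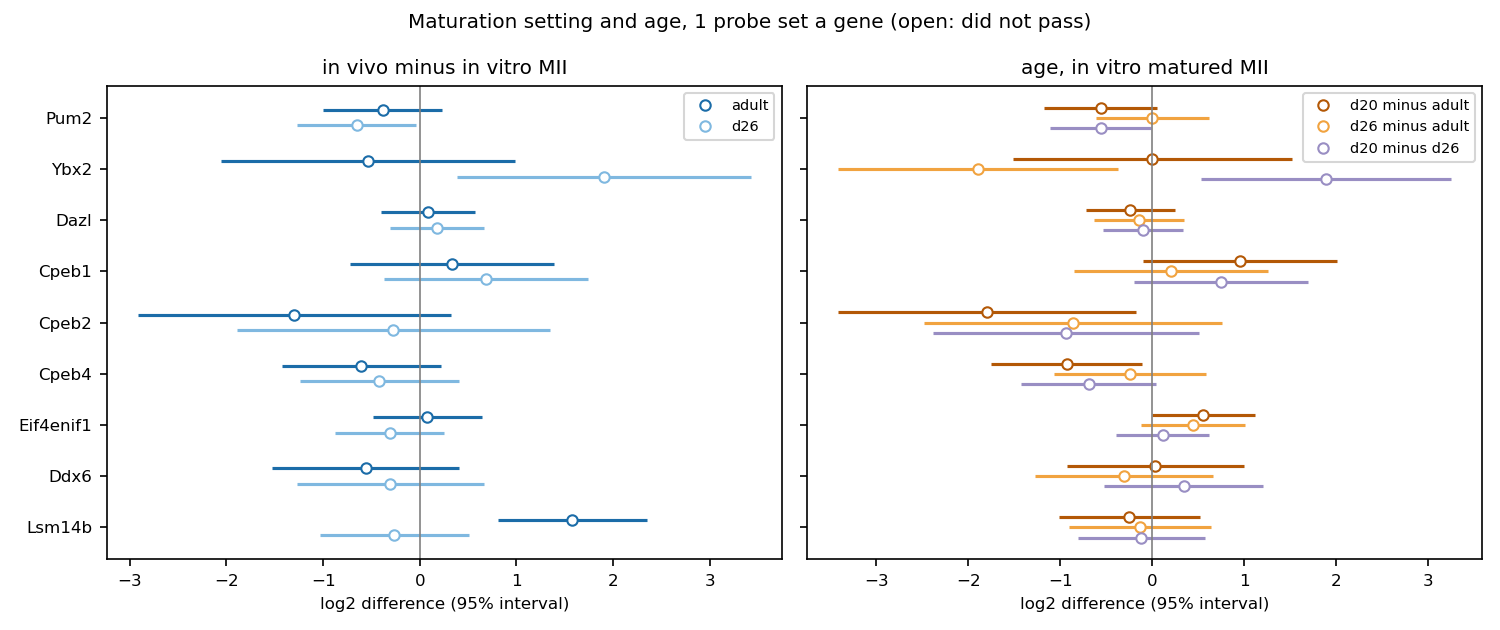
Log2 difference (horizontal axis) with 95% intervals from the limma fit for 1 probe set per gene. The left panel shows in vivo minus in vitro eggs in adult and d26 mice, and the right panel shows 3 age contrasts among in vitro eggs. All points are open because none passed, and Lsm14b in adults lies farthest from 0 relative to its interval, from 0.81 to 2.35.

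The other genes of stored-mRNA control were taken from 6 lists of 54 genes, of which 46 were tested with 1 probe set each. Of these, 11 were higher and 9 lower in vivo (43.5%) and 12 higher and 9 lower in vitro (45.7%), beside 26.8% and 27.7% of all tested probe sets. The rises depended on the scaling. With intensities as deposited, 0 were higher and 9 lower in vivo and 0 and 14 in vitro, with the sign turned for 16 and 17 of the 46. With a common median, 3 were higher and 10 lower in vivo and 7 and 11 in vitro, and without the 4 dim arrays 16 and 9, and 14 and 11. In none of the 7 other comparisons was a gene of these lists called. Among 6 tested paralogs of the members, 0 were higher and 1 lower in vivo, and 0 and 2 in vitro. Ybx3, a Y-box paralog of Ybx2, fell by 3.56 in vivo and fell by 2.79 in vitro, and Ybx1 fell by 1.13 in vitro (adjusted p = 0.022, limma), with -0.51 in vivo (adjusted p = 0.272). Of 5 cap-binding genes, 1 was higher and 2 lower in vivo and 2 and 2 in vitro. The 2 that fell in both settings act together in a repressor complex on the cap. Eif4e2 fell by 3.54 in vivo and fell by 3.77 in vitro, and Gigyf2 fell by 3.97 and fell by 6.42.

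Among 7 tested genes of repressor particles and P-bodies, the sites of mRNA decapping, 2 were higher and 1 lower in each setting. Patl1, a partner of DDX6 in decapping, rose by 2.36 in vivo and 1.88 in vitro, and the decapping enzyme Dcp2 rose by 1.05 and 1.68. Neither passed with a common median, and as deposited they read 0.46 and -1.01 (Patl1) and -0.76 and -1.08 (Dcp2). Patl2, the oocyte paralog of Patl1, fell by 1.95 and fell by 1.65. Of 14 further RNA-binding proteins, 5 were higher and 2 lower in vivo, and 6 and 2 in vitro. Nanos1, which acts with Pumilio proteins, rose by 2.11 and 2.07, but as deposited it differed by 0.16 and -0.84 and did not pass. Caprin2 had differences of -2.16 and -1.75, and Celf1, which promotes deadenylation, of -1.86 and -2.56.

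Of 5 partners of CPEB1 in polyadenylation, 1 was higher and 3 lower in vivo, and 0 and 2 in vitro. The cleavage and polyadenylation subunits Cpsf1 and Cpsf3 fell, with differences of -6.33 and -2.06 in vivo and -5.13 and -1.97 in vitro. The scaffold Sympk fell by 4.17 in vivo, and its in vitro value of -1.92 did not pass (adjusted p = 0.101). Of 9 mRNAs known as CPEB or DAZL targets, 2 were higher and 0 lower in each setting. These were Sycp1 and Sycp3, components of the synaptonemal complex that pairs meiotic chromosomes, at 2.23 and 2.89 in vivo and 3.05 and 3.64 in vitro. As deposited neither passed, at 0.41 and 1.12 in vivo and 0.27 and 1.06 in vitro.

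**Figure D5:**
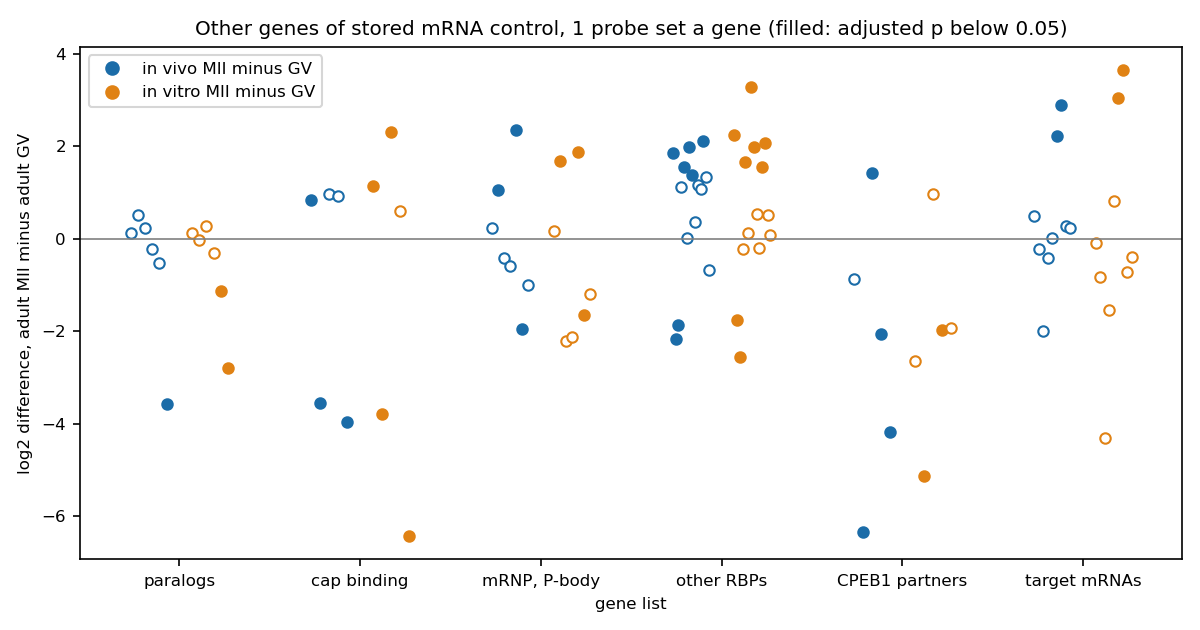
Log2 difference between adult MII and adult GV (vertical axis) for 46 tested genes in 6 lists (horizontal axis), 1 probe set per gene, in vivo in blue and in vitro in orange, filled where the adjusted p was below 0.05. Points are spread sideways only to be visible. Gigyf2, in the cap-binding list, is the lowest point in vitro at -6.42, and Cpsf1, in the list of CPEB1 partners, is the lowest in vivo at -6.33. With intensities as deposited no gene of the lists was called higher.

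The genes whose readings ran most like each member were found by Pearson r over the 15 arrays, which share the stage difference and the brightness of each array. For Pum2 these were Tab2, Ric1 and Pnpla8 (r of 0.99 each), and for Cpeb4 they were Csnk1g3, Prps1l3 and Zfp708 (0.99 each). For Cpeb1 they were Gja4, Tfap2e and Smarcal1 (0.98, 0.98 and 0.97), and within the 13 MII arrays alone these r values were 0.87, 0.92 and 0.91. Gja4 encodes connexin 37, the gap junction protein between oocyte and granulosa cells. For Cpeb2 they were BC048403, Mzt1 and Mex3b (0.96 each), for Eif4enif1 Nup214, Gnb1l and Phf20 (0.95, 0.93 and 0.93), and for Dazl Swt1, Rad1 and Add3 (0.96, 0.92 and 0.91). For Ybx2 they were Pdzd2, Sugp2 and Pcyt1a (0.94, 0.93 and 0.93), and for Ddx6 Aifm1, Dcun1d1 and Mtap (0.92, 0.85 and 0.82). Lsm14b had the lowest such values, with Bicd2 at 0.83, Ccdc61 at 0.75 and Ercc3 at 0.75.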

How the data were processed

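The values are linear intensities made by the authors with MAS5, per the submitters' processing notes. Neither the version of MAS5 nor its scaling target is stated in the sources used here. Per the labels' protocols, poly(A) RNA was captured with oligo(dT) beads and amplified in 2 cycles. The deposited intensities were taken to log2 and quantile normalized without the 64 controls. The upper 50% by mean (22519 probe sets, mean of at least 3.07) were tested with limma 3.58.1 (R 4.3.3), using 1 coefficient per group and an intensity trend, which left 9 residual degrees of freedom. The method was tested on simulated data.

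One probe set stands for a gene, the tested one with the highest mean. Named genes are the 9 members, up to 4 per list with the smallest p in either maturation comparison, and 3 genes per member by Pearson r. The members and lists were chosen with earlier results of these data known. Summed marker levels add linear normalized values. At most 0.00222% of values were identical between any pair of arrays. The number of arrays limits the precision. Alternatives were other scalings, filters, a pseudocount of 3, variance settings, array weights, only the compared arrays, and leaving out arrays.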

Additional observations from a re-analysis of the deposited data

How the results depend on the processing

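With intensities as deposited, 2 members were called in vivo and 5 in vitro against GV, beside 7 and 8 after quantile normalization, and Pum2 1418015_at turned to -0.24 in vitro (adjusted p = 0.853). The medians of all tested probe sets then were -0.98 and -1.94, and 23 were higher and 3481 lower in vivo and 11 and 6224 in vitro, beside 3542 and 2495, and 3607 and 2641. With a common median the splits were 1205 and 3876, and 1315 and 4468. The cause was not tested. Counts over all tested probe sets also moved when 1 array was left out. Against GV they were highest without d26 in vitro replicate 2, at 6829 in vivo and 7051 in vitro. Leaving out 1 array gave 5 to 9 members called in vivo and 6 to 9 in vitro. It gave 0 to 1 for d20 against adult in vitro eggs, where leaving out adult in vitro replicate 1 called 1 member beside 762 of all 22519 probe sets, and 0 in the other 6 comparisons. Over all tested probe sets, array weights called 10291 in vivo, and leaving out GV replicate 1 or 2 called 3790 or 3298 in vivo and 4136 or 3767 in vitro. For adult in vivo against in vitro eggs the count of 1 became 106 without the 4 dim arrays and 411 without adult in vitro replicate 1. These omissions took d20 against adult in vitro eggs from 5 to 325 and 762, d26 against adult from 1 to 83 and 305, and the mean over both ages from 51 to 133 and 444. The last was 198 without adult in vivo replicate 1 and 0 without d26 in vivo replicate 2, and d20 against adult was 85 without adult in vivo replicate 1 and 33 without d26 in vitro replicate 2. At d26 the in vivo against in vitro count of 9 became 85 without the 4 dim arrays, and leaving out 1 array gave 0 to 20. No paired analysis was possible because the labels give no replicate number that groups share. Signal limits the dim probe sets, since 7 of 20 fell below 3.07 in at least 1 array.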
